A study of Mus musculus with 24 samples.

Results

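The expression of 10 genes of hormone sensing, prostaglandin metabolism and labour was described at the mouse maternal-fetal interface (MFI) from gd10.5 to gd19.5 (gd, gestation day), the last stage before birth. The genes were taken by symbol, without use of their values, out of the 55401 genes of the count table: the steroid receptor genes Pgr, Esr1 and Nr3c1, the labour genes Oxtr and Gja1, and the prostaglandin genes Ptgs1, Ptgs2, Ptges, Ptgfr and Hpgd. Bulk RNA-seq libraries of polyA RNA were made from wild-type (WT) mice and from mice with a homozygous CRISPR deletion of 3 exons of C1qtnf6 (C1qtnf6-KO, here KO), both on a C57BL/6 background. Each genotype had 3 libraries at gd10.5 and 3 each at the later stages, which were gd14.5, then gd16.5 and last gd19.5, 24 in all. The age of the dams was not given in the sources used here, the methods describe the RNA as placental whereas the labels name the MFI, and nothing says whether the libraries of a group came from separate dams. The p-values therefore measure the spread between these libraries, which may in part be technical. The question for each gene was how its level at gd19.5 compared with the earlier stages, and whether that differed between the genotypes.

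In rodents pregnancy is kept by progesterone, which acts through the progesterone receptor encoded by Pgr, and birth follows when the progesterone action on the uterus is withdrawn. Oestrogen, acting through the receptor encoded by Esr1, favours the contractile state of the uterine muscle, in which the gap junction protein connexin 43 (Gja1) couples the muscle cells and the oxytocin receptor (Oxtr) lets them respond to oxytocin. Prostaglandins are made from arachidonic acid by the cyclooxygenases encoded by Ptgs1 and Ptgs2. Ptges encodes an enzyme that turns the product into prostaglandin E2, Ptgfr encodes the receptor of prostaglandin F2 alpha, and Hpgd encodes the enzyme that inactivates both. Nr3c1 encodes the glucocorticoid receptor.

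The genes lie apart from each other in the genome (GRCm38). Pgr is at chr9:8899833-8968611 and Esr1 at chr10:4611593-5005614, both on the plus strand. Oxtr is at chr6:112473683-112489943 on the minus strand and Gja1 at chr10:56377330-56402513 on the plus strand. Ptgs1 (chr2:36230426-36252272, plus strand), Ptgs2 (chr1:150100031-150108227, plus strand) and Ptges (chr2:30889471-30929863, minus strand) encode the synthesis enzymes. Ptgfr is at chr3:151796502-151837630 on the minus strand and Hpgd at chr8:56294585-56321043 on the plus strand. Exons of Ptgs1 shared 148 bases (3.81% of its exon length) with another annotated gene, and exons of Ptgfr shared 329 bases (4.85%). The reads were counted without strand, so reads there could not be assigned, and the other 8 genes had no such overlap.

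RefSeq promoter windows (GRCm38.p6, 250 bases before the start of transcription and 50 after it) were at hand for 9 of the 10 genes. The 250 bases before the start are printed for 4 genes that carry the stage differences below, Ptgs2 and Hpgd, which were highest at gd19.5, and Pgr and Gja1, which were highest at gd10.5. Capitals mark matches, on either strand, to any of 6 short motifs, which are spelled out after the sequences.
Ptgs2, chr1:150099781-150100030, plus strand: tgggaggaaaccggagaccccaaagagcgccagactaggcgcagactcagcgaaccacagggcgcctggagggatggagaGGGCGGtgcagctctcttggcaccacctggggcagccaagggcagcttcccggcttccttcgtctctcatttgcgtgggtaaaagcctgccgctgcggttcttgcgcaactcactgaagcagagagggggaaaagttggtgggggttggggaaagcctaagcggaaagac
Hpgd, chr8:56294302-56294551, plus strand: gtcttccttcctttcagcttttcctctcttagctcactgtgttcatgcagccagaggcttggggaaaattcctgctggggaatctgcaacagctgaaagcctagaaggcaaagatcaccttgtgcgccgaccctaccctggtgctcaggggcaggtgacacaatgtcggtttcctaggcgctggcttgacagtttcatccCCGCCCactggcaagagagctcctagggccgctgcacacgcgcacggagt
Pgr, chr9:8899583-8899832, plus strand: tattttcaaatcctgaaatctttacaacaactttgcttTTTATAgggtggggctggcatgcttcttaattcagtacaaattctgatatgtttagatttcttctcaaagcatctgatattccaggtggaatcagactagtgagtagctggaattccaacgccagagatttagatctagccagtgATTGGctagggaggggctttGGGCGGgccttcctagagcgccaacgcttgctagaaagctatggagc
Gja1, chr10:56377050-56377299, plus strand: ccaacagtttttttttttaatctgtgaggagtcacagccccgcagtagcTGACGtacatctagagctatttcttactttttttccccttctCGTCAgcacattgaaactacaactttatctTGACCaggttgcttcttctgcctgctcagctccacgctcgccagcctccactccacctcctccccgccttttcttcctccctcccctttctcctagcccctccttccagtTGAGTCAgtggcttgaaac

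Counted from the start of transcription, the Gja1 window held a match to the AP-1 motif, written TGANTCA where N is any base, at -19 to -13. It held 2 matches to the core of the cyclic AMP response element (TGACG), starting at -201 and -159. A match to the core of the oestrogen response element (GGTCA) was at -129 to -125. The Pgr window held a GC box (GGGCGG) at -47 to -42, counted from its own start of transcription. Its CCAAT box, searched by the letters CCAAT, was at -67 to -63, and a TATA box match (letters TATAAA, here on the other strand) was at -212 to -207. Ptgs2 had a GC box at -170 to -165 and a cyclic AMP core at 14 to 18, after the start and so not printed. Hpgd had a GC box at -50 to -45 and a TATA box match at 5 to 10. In the 300 base windows of all 32851 promoters of the RefSeq table, 7.81% held an AP-1 match, 20.8% a cyclic AMP core, 40.5% an oestrogen core, 35.7% a GC box, 37.4% a CCAAT box and 13.6% a TATA box. The matches describe letters in the window and were not tested as binding sites.

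Total counts per library lay between 20975717 and 37383108. C1qtnf6 stood at 64.7 to 168 CPM (counts scaled to a common library size) in the WT libraries and at 0.0341 to 2.05 CPM in the KO libraries, so the libraries matched their genotype labels. Transcripts of yolk sac endoderm (the summed CPM of Afp, Ttr, Apob, Apoa4, Amn and Cubn) stood at 1202 to 19946 CPM in 7 libraries and at 278 CPM or less in the other 17. The 7 were WT gd10.5 replicate 1, the 3 KO gd10.5 libraries, WT gd16.5 replicate 1 and KO gd16.5 replicates 1 and 2. No comparison with KO gd10.5 could therefore be repeated without the yolk sac libraries. KO gd10.5 replicate 2 also stood apart by its low decidual stroma marker sum (2763 CPM against 4437 to 14146 in the other gd10.5 libraries). Its spongiotrophoblast and glycogen cell marker sum was 11793 CPM against 791 to 2053 CPM in the others, and its natural killer cell sum 364 against 676 to 1021 CPM. The lowest gd10.5 value of Pgr, Esr1, Gja1, Ptgs1, Ptgs2 and Ptges was in that library. In these bulk samples a gene's lower level cannot be told apart from fewer cells that express it.

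**Figure D1:**
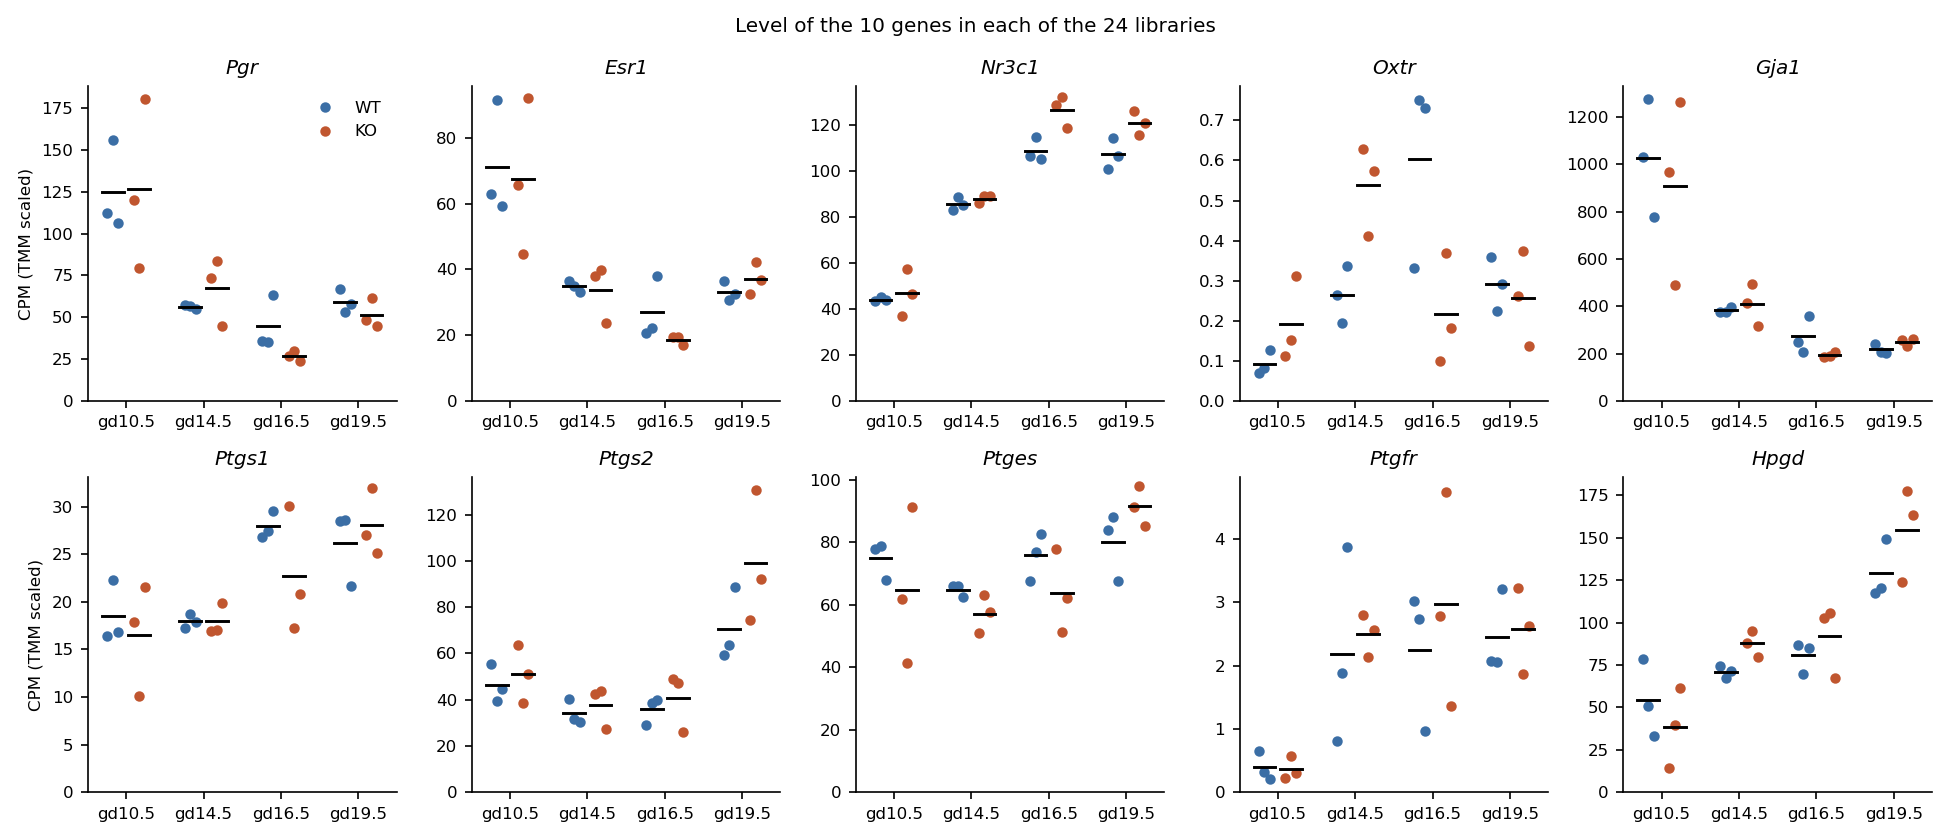
Level of the 10 genes in CPM (TMM scaled, linear axes from 0) against gestation stage. Each point is 1 library (blue WT, orange KO) and the black line is the mean of the 3 libraries. Ptgs2 was at 59.2 to 131 CPM in the 6 gd19.5 libraries and at 25.9 to 63.6 CPM in the 18 earlier ones, and Gja1 fell from a mean of 1029 CPM in WT gd10.5 to 218 CPM in WT gd19.5.

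The 10 genes spanned a wide range of levels. In CPM, which counts longer transcripts more often, Gja1 was the highest with 184 to 1277 CPM over the libraries, whereas Oxtr (2 to 20 counts per library) and Ptgfr (5 to 154 counts) were barely detected. Compared per kilobase of exon, so that genes can be set against each other, Hpgd was the most abundant of the 10 at gd19.5, with 76.6 ± 10.4 CPM per kb in WT and 91.9 ± 16.4 in KO (SD, n = 3) against 21.2 ± 2.07 and 24.3 ± 1.59 for Gja1. Of the prostaglandin genes, Ptges followed at 20.4 ± 2.75 and 23.3 ± 1.60 CPM per kb, then Ptgs2 at 15.4 ± 3.49 and 21.6 ± 6.29, and Ptgs1 at 6.75 ± 1.03 and 7.22 ± 0.906. The receptor gene Ptgfr was at 0.361 ± 0.0979 CPM per kb in WT. When the 8 groups were ordered by mean CPM, the ranges of all 7 pairs of neighbours overlapped for Ptgs1 and Ptgs2, and 6 of 7 did for Oxtr, Gja1, Ptges, Ptgfr and Hpgd. For Pgr and Esr1, 5 of 7 pairs overlapped, and for Nr3c1 4 of 7. The orders of neighbouring groups were thus mostly within the spread.

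Ptgs2, the inducible cyclooxygenase gene, was highest at gd19.5 in both genotypes. In WT it stood at 55.2, 39.3 and 44.6 CPM at gd10.5, at 40.1, 31.7 and 30.5 CPM at gd14.5, at 29.2, 38.7 and 40.0 CPM at gd16.5 and at 59.2, 63.7 and 88.9 CPM at gd19.5. The KO libraries gave 63.6, 38.8 and 51.3 CPM, then 42.7, 43.7 and 27.4, then 49.1, 47.3 and 25.9, and at gd19.5 74.3, 131 and 92.3 CPM. Within each genotype, every gd19.5 library was above every earlier one. Ptgs2 was the one gene of the 10 that passed the test in all 6 stage comparisons (edgeR quasi-likelihood test on all 24 libraries, adjusted over 19299 genes). Against gd16.5 the log2 fold change was 0.97 ± 0.26 (SE; adjusted p = 0.0376) in WT and 1.28 ± 0.26 (adjusted p = 0.00802) in KO. Against gd14.5 it was 1.05 ± 0.26 (adjusted p = 0.00372) and 1.38 ± 0.26 (adjusted p = 0.000365), and against gd10.5 0.61 ± 0.26 (adjusted p = 0.0452) and 0.95 ± 0.26 (adjusted p = 0.00311). The WT call against gd16.5 was lost without any 1 of WT gd16.5 replicates 1, 2 or 3 or WT gd19.5 replicates 2 or 3 (adjusted p 0.0652 to 0.202), and the KO call without KO gd19.5 replicate 2 (adjusted p = 0.0698). The WT call against gd10.5 was lost with limma voom (adjusted p = 0.0755) and without WT gd10.5 replicates 2 or 3 or WT gd19.5 replicate 3 (adjusted p up to 0.203). Without the 7 yolk sac libraries the rise against gd16.5 was 0.84 in WT (adjusted p = 0.0356) and 1.94 in KO (adjusted p = 0.00268). In KO this left 1 gd16.5 library, replicate 3, which had the lowest Ptgs2 level of all (25.9 CPM) and was assumed to vary like the other groups.

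Hpgd, which ends the action of prostaglandins, was also at its highest level at gd19.5. Its WT levels were 78.3, 50.7 and 33.4 CPM at gd10.5, 74.6, 67.3 and 71.2 CPM at gd14.5, 87.1, 69.8 and 85.1 CPM at gd16.5 and 117, 120.3 and 149 CPM at gd19.5. In KO the values were 14.6, 39.7 and 61.7 CPM, then 88.1, 95.0 and 79.9, then 103, 106 and 67.5, and at the last stage 124, 177 and 163 CPM. As with Ptgs2, the gd19.5 values did not overlap those of any earlier stage of the same genotype. Against gd10.5 Hpgd rose by 1.25 ± 0.33 in WT (edgeR adjusted p = 0.00296) and by 2.00 ± 0.34 in KO (adjusted p = 4.4e-05) on the log2 scale. Without the yolk sac libraries the WT rise from gd10.5 was 1.61, and the KO rise could not be recomputed. The differences against gd16.5 (0.68, adjusted p = 0.254, and 0.75, adjusted p = 0.187) and gd14.5 (0.86, adjusted p = 0.0519, and 0.82, adjusted p = 0.0647) did not pass the test. The WT difference against gd16.5 passed in edgeR with only the 6 libraries of the 2 groups (0.69, adjusted p = 0.0135). Without the libraries rich in yolk sac transcripts, chosen after seeing the data, it was 0.73 (adjusted p = 0.0152). The KO value was 1.20 (adjusted p = 0.00546), but it rests on 1 remaining gd16.5 library, the lowest of its group at 67.5 CPM, whose spread was taken from the other groups. The gd14.5 difference passed under 6 alternatives in WT and 4 in KO, DESeq2 and limma voom among them.

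The constitutive cyclooxygenase gene Ptgs1 and the synthase gene Ptges moved less. Ptgs1 had 16.4 to 22.3 CPM in WT gd10.5, 17.3 to 18.7 CPM in WT gd14.5, 26.8 to 29.5 CPM in WT gd16.5 and 21.6 to 28.6 CPM in WT gd19.5. It was higher at gd19.5 than at gd10.5 in both genotypes (0.50 ± 0.21, adjusted p = 0.0466 in WT, and 0.76 ± 0.21, adjusted p = 0.00424 in KO) and higher than at gd14.5 in KO (0.64 ± 0.21, adjusted p = 0.0247). The WT value against gd14.5 was 0.55 ± 0.21 (adjusted p = 0.0538), and it passed under 7 of 15 alternatives, DESeq2 (adjusted p = 0.0423) and limma voom (adjusted p = 0.000735) among them. Against gd16.5 the differences were -0.09 and 0.31 (adjusted p = 0.857 and 0.42). The WT call of Ptgs1 against gd10.5 was lost without WT gd10.5 replicates 1 or 3 or WT gd19.5 replicates 1 or 2 (adjusted p 0.110 to 0.145), and the KO call against gd14.5 without KO gd14.5 replicates 1 or 2 or KO gd19.5 replicate 2 (adjusted p 0.0789 to 0.0979).

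Ptges, the microsomal prostaglandin E synthase gene, stood at 67.8 to 88.3 CPM in WT gd19.5 and 85.4 to 98.0 CPM in KO gd19.5. In KO it was above gd14.5 (0.68 ± 0.19, adjusted p = 0.00993) and gd10.5 (0.50 ± 0.19, adjusted p = 0.0296). In WT the differences were 0.30 (adjusted p = 0.24) and 0.10 (adjusted p = 0.68). The WT gd19.5 libraries were all above those of gd14.5. That WT difference passed with limma voom (adjusted p = 0.0146) and in edgeR with only the 6 libraries of the 2 groups (adjusted p = 0.00728). The KO difference against gd10.5 was 0.26 (adjusted p = 0.166) without KO gd10.5 replicate 2, in which Ptges was at 41.5 CPM. This call was also lost without KO gd10.5 replicate 1 or KO gd19.5 replicate 2, and with only the 6 libraries of the 2 groups (adjusted p = 0.145). The KO call against gd14.5 was lost without KO gd14.5 replicate 1 (adjusted p = 0.0511). Against gd16.5 the KO difference was 0.52 (adjusted p = 0.109).

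Ptgfr, the receptor gene, was present at low counts after gd10.5. Its 6 gd10.5 libraries held 0.212 to 0.654 CPM and the 6 gd19.5 libraries 1.88 to 3.23 CPM, without overlap. The rise was 2.61 ± 0.58 in WT (adjusted p = 0.000638) and 2.81 ± 0.59 in KO (adjusted p = 0.000399) on the log2 scale, from 5 to 19 counts per library at gd10.5. No further rise after gd14.5 was seen at this depth: the gd19.5 values differed from gd14.5 by 0.19 ± 0.49 in WT and 0.04 ± 0.49 in KO, and from gd16.5 by 0.11 ± 0.50 and -0.23 ± 0.49.

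The steroid receptor genes Pgr and Esr1 ran close together. Pgr was at 113, 156 and 107 CPM in WT gd10.5, at 57.3, 56.9 and 55.0 CPM in WT gd14.5, at 35.6, 35.2 and 63.2 CPM in WT gd16.5 and at 66.7, 53.3 and 57.7 CPM in WT gd19.5. In KO its values were 120.1, 79.6 and 180.4 CPM, then 73.5, 83.5 and 44.6, then 26.6, 30.0 and 23.9, and at gd19.5 48.2, 61.4 and 45.0 CPM. The later WT libraries were all below those of gd10.5, in KO 1 gd14.5 library was above the lowest gd10.5 one, and the group means were lowest at gd16.5. Relative to gd10.5, Pgr fell by 1.08 in WT (SE 0.27, adjusted p = 0.00147) and by 1.30 in KO (SE 0.27, adjusted p = 0.000295) on the log2 scale. Relative to gd16.5 the KO libraries were higher by 0.94 ± 0.27 (adjusted p = 0.0449), a call lost without any 1 of the 6 KO libraries of these stages (adjusted p 0.0676 to 0.192), and the WT difference was 0.41 ± 0.27 (adjusted p = 0.411).

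Esr1, the oestrogen receptor alpha gene, had 63.0, 91.5 and 59.4 CPM in WT gd10.5 and 65.7, 44.7 and 92.1 CPM in KO gd10.5. Its lowest group was KO gd16.5 with 19.4, 19.4 and 17.1 CPM, against 20.7, 22.3 and 38.0 CPM in WT. At gd19.5 the WT libraries had 36.4, 30.6 and 32.5 CPM and the KO libraries 32.4, 42.1 and 36.9 CPM. The gene fell by 1.11 from gd10.5 to gd19.5 in WT (SE 0.25, adjusted p = 0.000585) and by 0.86 in KO (SE 0.24, adjusted p = 0.00454), and the KO call was lost without KO gd10.5 replicate 3 (-0.57, adjusted p = 0.0502). From gd16.5 it rose in KO by 0.99 ± 0.25 (adjusted p = 0.0248), whereas the WT difference was 0.30 ± 0.25 (adjusted p = 0.537). That KO call was lost without KO gd16.5 replicates 2 or 3 or KO gd19.5 replicates 2 or 3 (adjusted p 0.0581 to 0.119) and without the yolk sac libraries, which leaves 1 KO gd16.5 library (1.12, adjusted p = 0.0535). The genotypes were not shown to differ in this step: the interaction was 0.70 ± 0.35 for Esr1 (adjusted p = 0.388) and 0.53 ± 0.38 for Pgr (adjusted p = 0.533). WT gd16.5 replicate 3 held the highest Pgr, Esr1 and Gja1 values of its group. It also had the group's highest smooth muscle marker sum (865 CPM against 633 and 663). The same held for decidual stroma (3013 against 2850 and 1957 CPM), endothelium (1422 against 1026 and 1073) and macrophage markers (1256 against 963 and 890). Its spongiotrophoblast and glycogen cell sum (28009 against 35505 and 39417 CPM) and its giant cell sum (16652 against 22048 and 23790) were the lowest. The part of these cells in the values was not tested.

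Nr3c1 (chr18:39410545-39519421, minus strand), the glucocorticoid receptor gene, had a mean level that was higher at each stage up to gd16.5 and about the same at gd19.5. WT libraries had 43.3, 45.1 and 44.0 CPM at gd10.5, 83.2, 88.9 and 85.4 CPM at gd14.5, 107, 115 and 105 CPM at gd16.5 and 101, 114 and 107 CPM at gd19.5. The KO libraries had 37.1 to 57.7, 86.1 to 89.2, 119 to 132 and 116 to 126 CPM at the 4 stages. Of the 10 genes Nr3c1 had the smallest errors. At gd19.5 it was above gd10.5 by 1.28 ± 0.10 in WT (adjusted p = 2.55e-09) and 1.36 ± 0.10 in KO (adjusted p = 1.17e-09), and above gd14.5 by 0.32 ± 0.10 (adjusted p = 0.0167) and 0.46 ± 0.10 (adjusted p = 0.00151). Against gd16.5 the differences were -0.02 ± 0.10 and -0.07 ± 0.10. The WT call against gd14.5 was lost without WT gd14.5 replicates 1 or 3 or WT gd19.5 replicate 2 (adjusted p 0.0506 to 0.0761).

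Gja1 was lower at gd19.5 than at the first stages. It stood at 1029, 1277 and 779.8 CPM in WT gd10.5, at 378, 376 and 396 CPM in WT gd14.5, at 249, 209 and 359.6 CPM in WT gd16.5 and at 242, 208 and 203 CPM in WT gd19.5. In KO the levels were 969, 489 and 1263 CPM, then 414, 496 and 316, then 184, 188 and 209, and at gd19.5 258, 231 and 259.9 CPM. From gd10.5 it fell by 2.24 in WT (SE 0.26, adjusted p = 4.21e-07) and in KO it fell by 1.86 (SE 0.26, adjusted p = 3.8e-06). From gd14.5 it fell by 0.82 (adjusted p = 0.0172) and by 0.71 (adjusted p = 0.0361), the latter lost without KO gd14.5 replicates 1 or 2 or any 1 of the KO gd19.5 libraries and the former without WT gd19.5 replicates 2 or 3. Against gd16.5 the WT difference was -0.32 ± 0.25 (adjusted p = 0.504) and the KO difference 0.37 ± 0.25 (adjusted p = 0.426). A rise of this connexin gene from gd16.5 to gd19.5 was called in neither genotype, except in KO when only the 6 libraries of the pair of groups were fitted (0.34, adjusted p = 0.0485).

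Oxtr, the oxytocin receptor gene, stayed near the limit of detection. WT libraries held 2 or 3 counts each at gd10.5 (0.0688, 0.0810 and 0.127 CPM), and 0.331, 0.752 and 0.730 CPM at gd16.5 against 0.359, 0.224 and 0.292 CPM at gd19.5. The 3 WT gd19.5 libraries together held 22 counts and the 3 WT gd10.5 libraries 8, a ratio of 3.25 after scaling by library size (95% exact binomial interval 1.39 to 8.45, counting error only). The edgeR test called this difference (adjusted p = 0.0141), but not without WT gd19.5 replicate 1 (adjusted p = 0.0507). Against gd16.5 the WT value was -1.04 ± 0.44 (adjusted p = 0.178), and it passed without the yolk sac library of WT gd16.5 (-1.36, adjusted p = 0.0395). No rise of Oxtr from gd16.5 to gd19.5 was detectable at this depth, since KO gave 0.14 ± 0.50 (adjusted p = 0.936). Against gd14.5 the WT value was 0.17 ± 0.47 (adjusted p = 0.82) and the KO value -1.05 ± 0.43 (adjusted p = 0.0688). The KO gd19.5 libraries were all below those of gd14.5. That KO difference passed with limma voom (adjusted p = 0.0200) and without KO gd19.5 replicate 2 (adjusted p = 0.0443). The filter on low counts kept Oxtr through the KO gd14.5 libraries and WT gd16.5 replicates 2 and 3, where it was high. Its falls from those 2 groups thus rest on the values that let it into the test. Against gd10.5 the KO value was 0.41 ± 0.51 (adjusted p = 0.504).

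**Figure D2:**
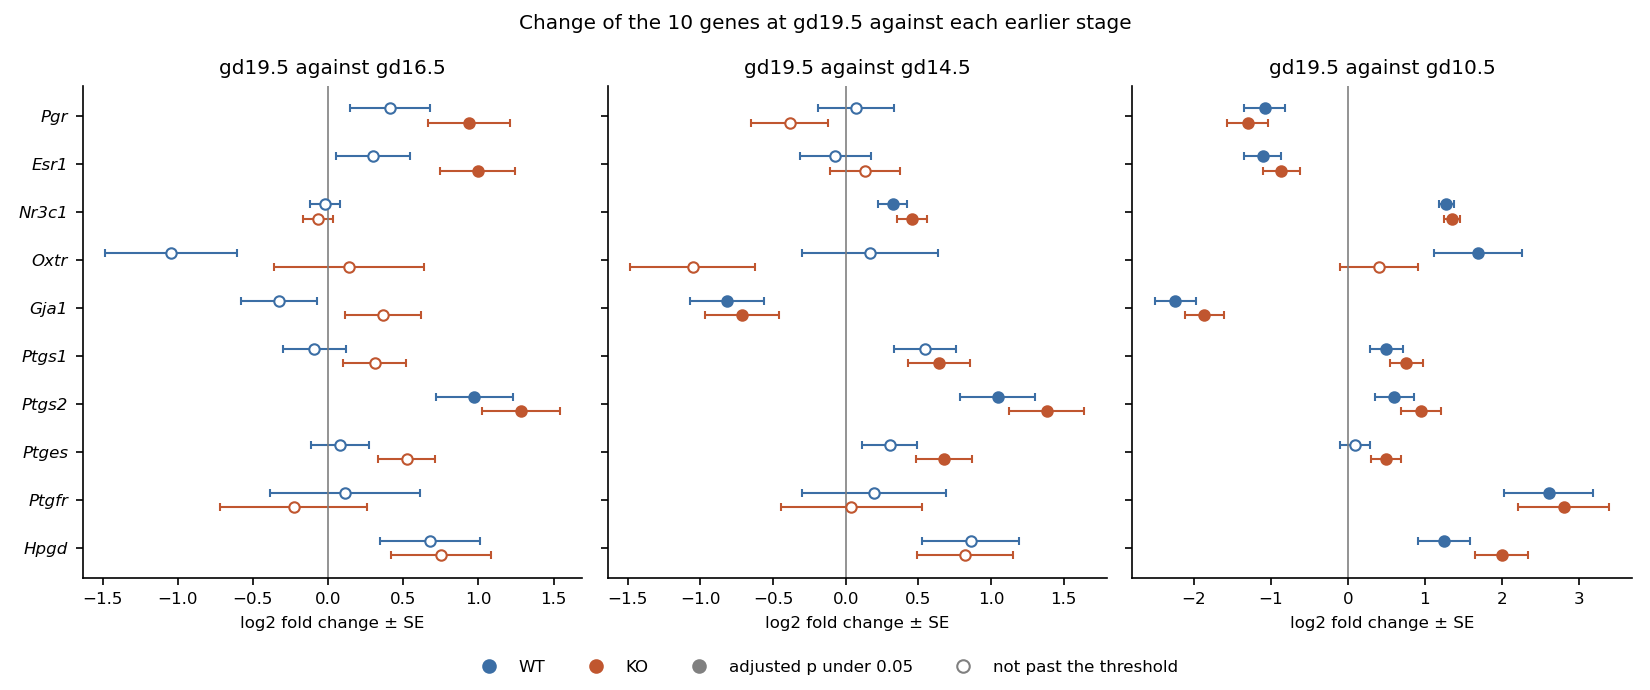
Log2 fold change of each gene at gd19.5 against gd16.5, gd14.5 and gd10.5, with bars of 1 SE (edgeR, 24 libraries; blue WT, orange KO). Filled points have an adjusted p under 0.05, and the third panel has a wider axis. Ptgs2 is filled and to the right of 0 in all 6 comparisons, and Gja1 lies between -2.24 and -0.71 against gd14.5 and gd10.5.

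Set against all genes tested, the number of these genes called grew with the distance in time much as the background did. Against gd16.5, 1 of 10 was called in WT, where 4.64% of all 19299 genes were (1.97% higher and 2.67% lower), and 3 of 10, all higher, in KO (Ptgs2, Pgr and Esr1), where 5.98% were (3.02% higher and 2.96% lower). Against gd14.5, 3 of 10 were called in WT (Ptgs2 and Nr3c1 higher, Gja1 lower) beside 33.2% of all genes (15.5% higher and 17.6% lower). In KO 5 of 10 were called (Ptgs2, Nr3c1, Ptgs1 and Ptges higher, Gja1 lower) beside 32.1% (16.1% higher and 15.9% lower). Against gd10.5, 9 of 10 were called in each genotype, 6 higher and 3 lower, beside 62.7% of all genes in WT (30.5% higher and 32.2% lower) and 61.4% in KO (29.8% higher and 31.6% lower). The CPM ranges of gd19.5 and the earlier stage did not overlap for 2, 6 and 8 of the 10 genes in WT against gd16.5, gd14.5 and gd10.5 respectively, beside 29.7%, 54.6% and 67.7% of all genes. In KO they did not for 6, 7 and 8, beside 29.9%, 51.5% and 60.4%. Pgr, Esr1 and Gja1 were the 3 lower genes in both. The gene not called was Ptges in WT and Oxtr in KO. The median log2 fold change of the 10 genes against gd16.5 was 0.10 in WT and 0.44 in KO, and that of all genes -0.01 and -0.004.

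Loss of C1qtnf6 was followed by no called change in any of the 10 genes at the stages where they could be tested. Oxtr passed the filter on low counts only at gd14.5, and Ptgfr did not pass it at gd10.5. Where a call needed an adjusted p under 0.05 together with a fold change above 1 on the log2 scale in either direction (edgeR, the 6 libraries of the stage), 0 genes of the 8 tested at gd10.5, the 10 at gd14.5, the 9 at gd16.5 and the 9 at gd19.5 were called. Among all genes 0.00572%, 0.0166%, 0.00586% and 0.023% were called at these stages. DESeq2 and limma voom also called 0. An unadjusted p under 0.05 was found for 0 of 8, 3 of 10, 4 of 9 and 0 of 9 of the genes tested, beside 0.801%, 6.78%, 11.1% and 13.5% of all genes. The smallest errors were those of Nr3c1, whose KO libraries were all above the WT libraries at gd16.5 (0.23 ± 0.08, adjusted p = 0.421) and gd19.5 (0.14 ± 0.07, adjusted p = 0.389). Hpgd was higher in all KO gd14.5 libraries (0.30 ± 0.07, adjusted p = 0.517). So was Oxtr, with 0.630, 0.412 and 0.574 CPM in KO against 0.263, 0.193 and 0.337 CPM in WT, from 7 to 20 counts per library. Its log2 fold change of 1.04 ± 0.34 was the largest genotype difference tested among the 10 (adjusted p = 0.693), and the filter let it in there through its KO libraries. At gd16.5 Oxtr was not tested, and its mean was lower in KO. The KO libraries had 0.0996, 0.370 and 0.182 CPM there, against 0.331, 0.752 and 0.730 CPM in WT. Those values overlapped and came from 2 to 17 counts per library. Pgr, Esr1 and Gja1 were lower in all KO gd16.5 libraries, by 0.72 ± 0.23, 0.52 ± 0.22 and 0.48 ± 0.19 on the log2 scale (adjusted p 0.421 to 0.45). The CPM ranges of the genotypes did not overlap for 1 gene at gd19.5 (21.4% of all genes), 4 at gd16.5 (17.7%), 2 at gd14.5 (12.5%) and 0 at gd10.5 (4.18%). Without the yolk sac libraries, which leaves 1 KO library assumed to vary like the WT ones, Pgr passed at gd16.5 (-1.03, adjusted p = 0.00427). At gd19.5 Ptgs2 was 0.46 ± 0.21 higher in KO (adjusted p = 0.37), with overlapping values. The genotype by stage interaction called 0 of the 10 and 0 of all 19299 genes (0%) in edgeR. DESeq2 and limma voom called 0 of the 10 and 38 and 17 of all genes. In edgeR, of the 10 only Oxtr had an unadjusted p under 0.05 (adjusted p = 0.577), beside 7.23% of all genes.

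Ratios between pairs of the genes within a library, which do not depend on how libraries are scaled, were compared per kilobase, a choice made after the values had been seen. The ratio of Pgr to Esr1 was the steadiest. In WT it lay at 2.73 to 2.87 at gd10.5, 2.52 to 2.66 at gd14.5, 2.53 to 2.75 at gd16.5 and 2.79 to 2.93 at gd19.5, although the levels of both genes changed. KO libraries were above WT at gd14.5, with 3.09, 3.36 and 3.01, and below it with 2.19, 2.47 and 2.24 at gd16.5 and with 2.38, 2.33 and 1.95 at gd19.5. At these 3 stages the genotypes did not overlap, whereas at gd10.5 they did. The exact permutation test gave p = 0.1 (two-sided) at each of the 3, the smallest that 3 against 3 libraries allow, and 0.4 after adjustment over 12 comparisons. The ratio of Ptgs2 to Ptgs1 was 1.76 to 3.49 over the 6 gd19.5 libraries and 0.923 to 3.25 over the 18 earlier ones, so the ranges overlapped. In WT it was lowest at gd16.5 (0.923 to 1.20) and at gd10.5 it was 1.49 to 2.86, and KO gd16.5 had 1.06 to 2.32. Ptgs2 to Hpgd, the gene of synthesis over that of inactivation, was 0.185 to 0.271 over the 6 gd19.5 libraries and 0.123 to 0.204 over the 6 gd16.5 libraries. At gd10.5 it was higher, at 0.259 to 0.491 in WT and 0.306 to 1.60 in KO, so gd19.5 was not the stage of the highest ratio.

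**Figure D3:**
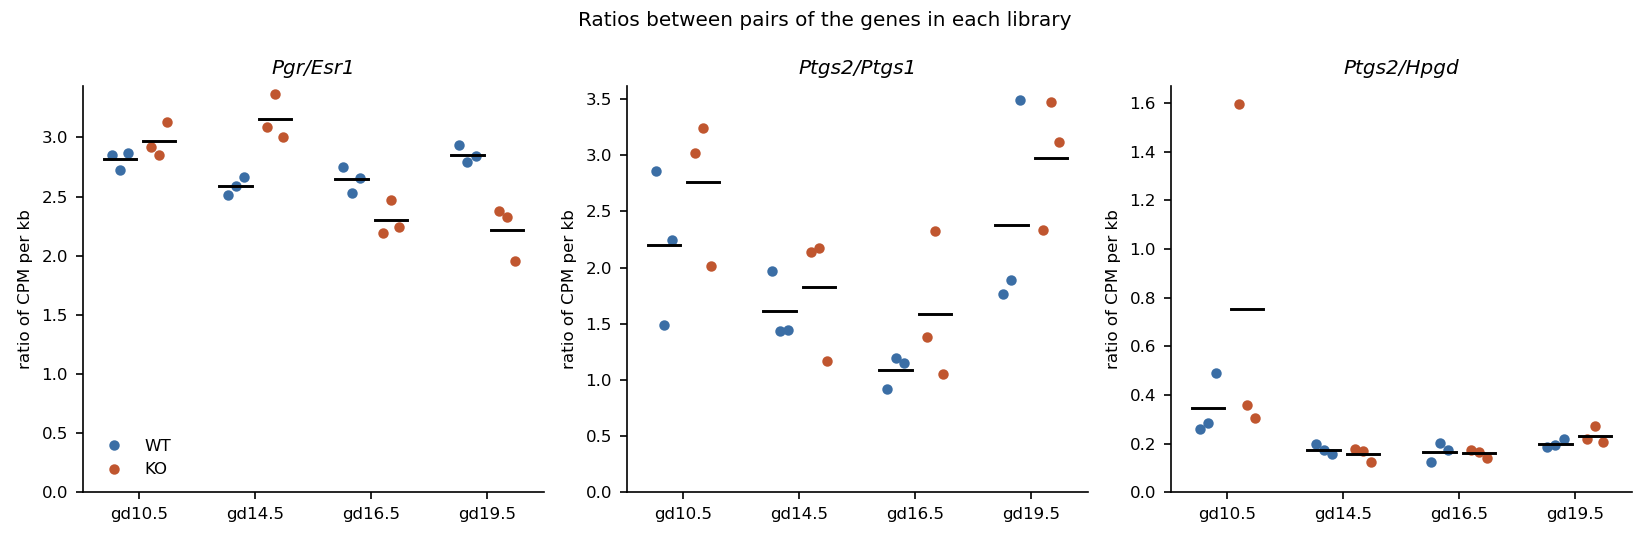
Ratio of CPM per kilobase of Pgr to Esr1, Ptgs2 to Ptgs1 and Ptgs2 to Hpgd against gestation stage. Each point is 1 library (blue WT, orange KO) and the black line is the mean of 3. The Pgr to Esr1 ratio of KO lies above WT at gd14.5 and below it at gd16.5 and gd19.5, and 1 KO gd10.5 library has a Ptgs2 to Hpgd ratio of 1.60, where Hpgd was at 14.6 CPM.

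Other genes of prostaglandin metabolism were read beside the members, from a list of 19 enzymes and transporters of which 17 could be tested. Against gd16.5, 1 rose and 1 fell in WT, and in KO 1 rose and 2 fell, beside 1.97% of all genes higher and 2.67% lower in WT and 3.02% and 2.96% in KO. Pla2g4a, the cytosolic phospholipase A2 that releases arachidonic acid, rose by 0.59 ± 0.13 in WT (adjusted p = 0.018) and 0.46 ± 0.13 in KO (adjusted p = 0.0485). Its relative Pla2g4f fell by 0.96 in WT (adjusted p = 0.0494) and by 1.76 in KO (adjusted p = 0.00173). Against gd10.5, 4 rose and 11 fell in WT, and 4 rose and 9 fell in KO. In that comparison 30.5% of all genes were higher and 32.2% lower in WT, and 29.8% and 31.6% in KO, which is the background for the lists that follow as well. Slco2a1, the prostaglandin transporter gene, rose by 2.10 ± 0.16 and 2.30 ± 0.17, and Ptgis, the prostacyclin synthase gene, fell by 2.94 and 2.56. Of 9 other prostanoid receptor genes 0 were called against gd16.5 in WT, and 1 rose in KO. In WT 3 of the 9 had an unadjusted p under 0.05, beside 20.6% of all genes. Against gd10.5, 1 rose and 3 fell in WT. Ptgdr2, a prostaglandin D2 receptor gene, rose by 5.22 ± 0.48 in WT and 3.48 ± 0.40 in KO, and those that fell included the prostaglandin E2 receptor genes Ptger2 (-1.05, adjusted p = 0.0312) and Ptger4, which fell by 2.00 (adjusted p = 2.45e-05).

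Among 18 other steroid receptors and cofactors, 17 were tested, and against gd16.5 1 rose and 1 fell in WT and 2 rose and 1 fell in KO. The coactivator gene Ncoa1 rose by 0.62 ± 0.12 in WT (adjusted p = 0.00703) and 0.61 ± 0.12 in KO (adjusted p = 0.0072). The membrane progestin receptor gene Paqr7 fell by 1.06 and 0.68 (adjusted p = 0.00478 and 0.0431). Fkbp4, a cochaperone of the progesterone receptor, fell by 1.87 from gd10.5 in WT and fell by 1.67 in KO. Of 12 genes known as targets of the progesterone receptor, 11 were tested, and 0 were called against gd16.5 in either genotype. An unadjusted p under 0.05 was found for 0 in WT and 5 in KO, beside 20.6% and 21.8% of all genes. Against gd10.5, 7 fell and 1 rose in WT and 8 fell and 1 rose in KO, Hand2 by -3.40 and -2.75 and Hoxa11 by -2.14 and -2.04 among those that fell. The list shares 5 genes with the decidual stroma markers described below, so the 2 are not separate readings. The oestrogen targets divided: of 9 tested, 2 rose and 3 fell against gd10.5 in each genotype. Muc1 rose by 1.96 and 1.60, and the replication gene Mcm2 fell by 2.34 and 2.25. Ccnd1, the cyclin D1 gene, rose against gd16.5 by 0.88 ± 0.20 in WT (adjusted p = 0.0166) and 1.15 ± 0.20 in KO (adjusted p = 0.00372). In the same step Greb1, a growth regulator induced by oestrogen, fell by 2.22 in KO (SE 0.38, adjusted p = 0.00321), with -0.75 ± 0.37 in WT (adjusted p = 0.255) and an interaction of -1.48 ± 0.53 (adjusted p = 0.254). Muc1 was at -0.95 ± 0.38 in WT (adjusted p = 0.156) and 0.06 ± 0.37 in KO. Of 11 glucocorticoid related genes, 4 rose and 5 fell in WT against gd10.5. Hsd11b1, which activates glucocorticoids, rose by 1.27 ± 0.23 and Hsd11b2, which inactivates them, fell by 4.21 (SE 0.38), with 1.31 and -4.40 in KO.

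The median log2 fold change against gd10.5 in WT was -0.51 for the prostaglandin enzymes, -0.14 for the prostanoid receptors, 0.41 for the steroid receptors and cofactors, -1.66 for the progesterone targets, -1.05 for the oestrogen targets and -0.16 for the glucocorticoid list, and that of all genes was -0.02. Against gd16.5 the same medians lay between -0.11 and 0.03 in WT. In KO they were 0.48 for the progesterone targets, 0.46 for the prostanoid receptors, 0.12 for the prostaglandin enzymes and 0.06 to 0.07 for the other 3 lists.

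The list of other genes associated with labour held 27 genes, 21 of them tested. In WT 3 rose and 1 fell against gd16.5, and in KO 2 rose, with medians of -0.02 in WT and 0.21 in KO. The cytokine gene Tnf rose by 0.99 ± 0.26 in WT (adjusted p = 0.0364) and 0.86 ± 0.25 in KO (adjusted p = 0.0438). Il1b rose by 1.29 ± 0.32 in WT (adjusted p = 0.0269), with -0.10 ± 0.30 in KO, and the interaction of genotype with this step was -1.39 ± 0.44 (adjusted p = 0.214). Rxfp1, the relaxin receptor gene, rose by 1.48 ± 0.40 in WT (adjusted p = 0.04), and its KO value was 1.07 ± 0.39 (adjusted p = 0.11). Against gd10.5, Lnpep, whose product degrades oxytocin, rose by 0.95 ± 0.07 in WT and 1.03 ± 0.07 in KO. Akr1c18, the gene of the enzyme that breaks down progesterone, fell by 5.81 (SE 0.58) in WT and fell by 5.80 (SE 0.58) in KO, with the limit that reads of its near-identical relatives may not have been assigned.

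Marker genes of cell types that the sampled tissue can hold moved with the stages. The summed level of 7 decidual stroma markers was 2763 to 14146 CPM at gd10.5, 2859.9 to 3622 CPM at gd14.5, 1867 to 3013 CPM at gd16.5 and 2317 to 4116 CPM at gd19.5, and all 7 markers fell from gd10.5 to gd19.5 in both genotypes. The sum of 8 smooth muscle markers was 723 to 1638 CPM at gd10.5 and 655 to 926 CPM at gd19.5. By gene, however, 6 of the 8 rose from gd10.5, Myh11 among them, and the intermediate filament genes Des and Synm fell. From gd16.5 to gd19.5, 4 of the 8 rose in KO and 0 in WT (1 had an unadjusted p under 0.05), beside 3.02% and 1.97% of all genes. The interaction of genotype with this step called 0 of the 8 (4 had an unadjusted p under 0.05). The share of all genes with an unadjusted p under 0.05 was 20.6% in WT and 13.4% in the interaction. Over the marker lists the interaction gave such a p for between 0 of 5 (giant cell) and 5 of 6 genes (endothelium). The KO gd16.5 libraries had the lowest smooth muscle sums (498 to 602 CPM) together with the lowest mean Pgr, Esr1 and Gja1 levels of the 8 groups. Those libraries also had the highest sums of spongiotrophoblast and glycogen cell markers (47479 to 51635 CPM against 28009 to 39417 CPM in WT gd16.5), and more giant cell marker transcripts than WT (24975 to 29176 against 16652 to 23789.5 CPM). Their fetal mesenchyme sums were lower (2725 to 3341 against 3686 to 4046 CPM). Over the stages the spongiotrophoblast and glycogen cell sum was 791 to 11793 CPM at gd10.5 and 20798 to 51635 CPM at all later stages. Natural killer cell markers fell from 364 to 1021 CPM at gd10.5 to 10.7 to 22.3 CPM at gd19.5. Defining markers of every cell type examined were above 0 in at least 1 library of each group, except Synb of the labyrinth and the neutrophil genes Ly6g and Elane in some groups. The part of these cell types in the levels of the 10 genes was not tested.

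**Figure D4:**
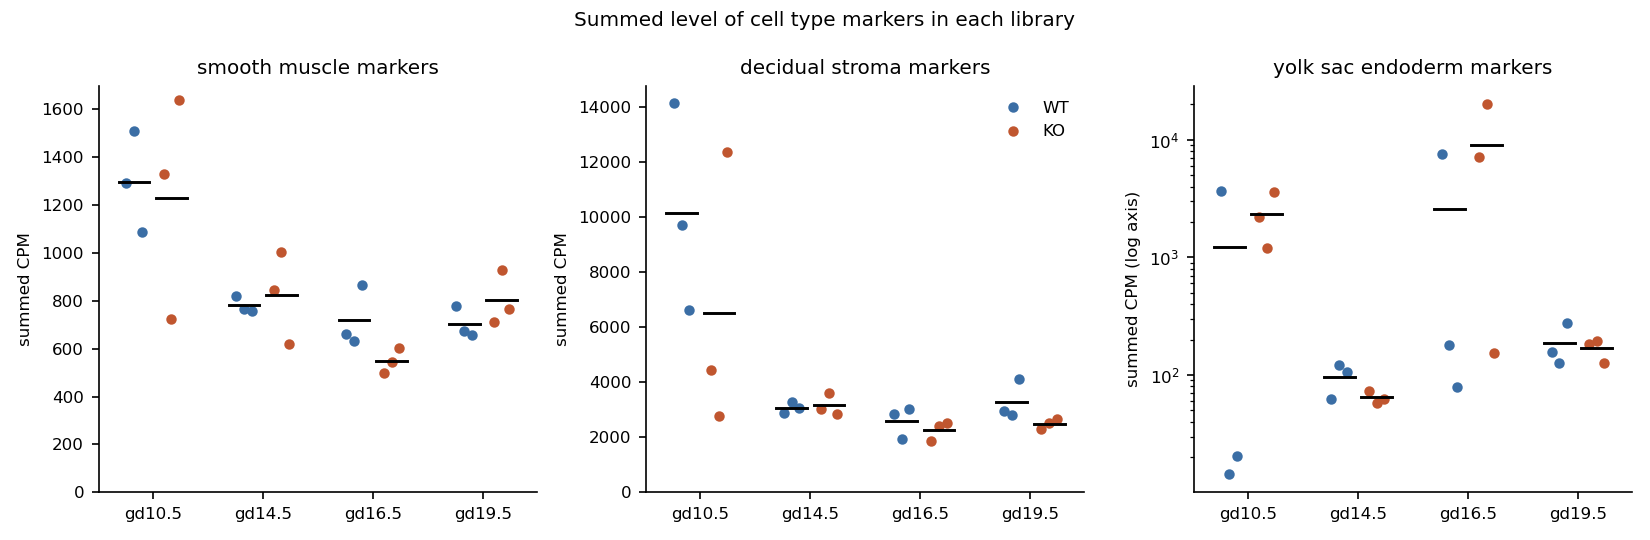
Summed CPM of 8 smooth muscle, 7 decidual stroma and 6 yolk sac endoderm markers against gestation stage. Each point is 1 library (blue WT, orange KO), the black line is the mean of 3, and the yolk sac panel has a log axis. The 7 yolk sac rich libraries lie at or above 1202 CPM at gd10.5 and gd16.5, and all gd14.5 and gd19.5 libraries lie at or below 278 CPM.

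The protein-coding genes with the profile most like each member were found by Pearson's r of log2 CPM over the 24 libraries among 15422 genes. The libraries form stage groups, so r mostly describes the shared course over gestation. Gja1 ran closest with Hand2 (r = 0.992) and Arl4d (0.990), Esr1 with Tspan4 (0.985) and Slco5a1 (0.976), and Pgr with Slco5a1 (0.976) and Gm16485 (0.972). Nr3c1 was nearest to Dusp16 (0.987) and Smad3 (0.986). Among the prostaglandin genes, Ptgs2 was nearest to Adgra1 (0.887) and Gclc (0.870), Hpgd to Amer2 (0.946) and Pianp (0.946), Ptgs1 to Tmem185a (0.931) and Adgrl4 (0.904), and Ptges to Neo1 (0.911) and Exoc6b (0.905). The sparse genes gave Gkn2 (0.955) and Trpv3 (0.949) for Ptgfr, and for Oxtr only Eml6 (0.740) and Oaz2 (0.737).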

How the data were processed

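RNA-seq libraries (stranded mRNA kit, paired reads) were trimmed by the authors with Trim Galore 0.6.4, aligned with STAR 2.7.3a to GRCm38 and counted per gene with featureCounts of Subread 2.0.0. The deposited values are raw counts of 55401 genes in 24 libraries. Counting used either strand and dropped reads that fit several genes, so genes with near-identical copies or overlapping exons are read low. Groups were taken from the genotype and stage labels.

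Counts were analysed with edgeR 4.0.16 (R 4.3.3) after TMM scaling and a filter on low counts (minimum count 10, minimum total 15). Stages and interactions were tested by the quasi-likelihood test over all 24 libraries in 8 groups (19299 genes, Benjamini-Hochberg adjusted p under 0.05). Genotypes were tested in the 6 libraries of a stage, where an absolute log2 fold change over 1 was also required. The SE is the absolute log2 fold change divided by the square root of F. Levels in CPM use TMM library sizes, and CPM per kilobase uses the summed exon length. At these depths 3 counts equal 0.0803 to 0.143 CPM. Replicate libraries differed by more than sampling noise (chi-square per degree of freedom 7.86 to 169). DESeq2 1.42.0, limma 3.58.1 (voom with quality weights), other scalings and filters, a replicate block and leaving out single libraries were the alternatives. Simulated data were used to test edgeR, DESeq2 and limma voom in WT gd19.5 against gd16.5 and in KO against WT at gd19.5. The interactions and the other alternatives were not simulated. KO replicates carry the numbers of the sample descriptions.

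The 10 genes were taken by symbol and not by their values. They and the pathway and marker lists were still chosen with earlier results of these data known. Named pathway genes were, per list, up to 3 with the smallest adjusted p against gd16.5 and up to 2 against gd10.5 in WT, with others named only where a result turned on them, after their values were seen. Promoter windows came from RefSeq.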

Additional observations from a re-analysis of the deposited data

Results flagged for a closer look

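In these libraries the ratio of Pgr to Esr1 per kilobase was higher in KO than in WT at gd14.5 and lower at gd16.5 and gd19.5. At each of these stages alone the exact permutation test gave p = 0.1, or 0.4 after adjustment over 12 comparisons. The log2 ratio in KO minus that in WT was 0.28 at gd14.5. It was -0.20 at gd16.5, and -0.37 was found at the last stage. The genotype difference changed by -0.48 from gd14.5 to gd16.5 and by -0.65 from gd14.5 to gd19.5. An exact permutation test of genotype labels within both stages gave p = 0.005 for each (two-sided), the smallest that 400 permutations allow. After adjustment over 18 such tests it was 0.045. Its null is no genotype difference at either stage, so it cannot show by itself that the difference changed. Ratios that separate fully in opposite directions give this smallest p, and both tests share the gd14.5 libraries. In edgeR the genotype by stage interaction was not called for the levels of Pgr (adjusted p = 0.723) or Esr1 (adjusted p = 0.808). All 3 KO libraries were above the WT libraries at gd14.5, and at both later stages all 3 were below them. The ratios were chosen after the values had been seen.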

How the results depend on the processing

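Of the member log2 fold changes recomputed under an alternative, 66 lost a call and 29 gained one. In 13 values without a call the sign changed and the value moved by more than 1 SE of the main result. Shifts of that size that kept the sign and the call were not counted. The sign stayed the same in 1595 of 1659 values and changed in 64, none of which belonged to a called difference (adjusted p 0.635 or more). Against gd16.5 in WT, the 1 called gene became 0 with a replicate block, 2 with only the 6 libraries of the groups, 0 when an absolute log2 fold change over 1 was required, 3 without the yolk sac libraries (Ptgs2, Hpgd and Oxtr) and 0 to 1 when single libraries were left out. In KO the 3 called became 1 with the fold limit and 0 to 2 when single libraries were left out, 0 without KO gd19.5 replicate 2. Against gd14.5 in WT the 3 became 5 with at least 10 counts in every library, 5 with DESeq2, 6 with limma voom, 6 with only the 6 libraries, 1 with the fold limit and 1 to 3 when single libraries were left out, 1 without WT gd19.5 replicate 2. In KO the 5 became 8 with limma voom, 1 with the fold limit and 2 to 5 when single libraries were left out, 2 without KO gd14.5 replicate 1. Against gd10.5 in KO the 9 became 5 with the fold limit. For KO against WT at gd16.5 the 0 became 1 without the yolk sac libraries (Pgr). The cause was not tested, other than that the fold limit is stricter and leaving out a library leaves fewer samples, both by construction. The yolk sac alternative was chosen after seeing the data.

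Replicate numbers were not shown to pair the samples. In 0 of 10 comparisons did every pair of same-numbered libraries deviate together with r over 0.1 (r from -0.455 to 0.406). In 10 of 30 cases a library correlated best with its own number. Every KO gd19.5 library, however, correlated best with the WT gd19.5 library of its number (r = 0.0954, 0.0379 and 0.114). Between KO and WT at gd16.5 r was 0.124, -0.308 and 0.406, and at gd10.5 it was 0.0315, -0.0267 and -0.455. Pairing within a stage was therefore not settled. With the replicate block, 0, 3 and 8 of the 10 were called in WT against gd16.5, gd14.5 and gd10.5, and 2, 5 and 9 in KO. The block ended the WT calls of Ptgs2 against gd16.5 (adjusted p = 0.0504) and of Ptgs1 against gd10.5 (adjusted p = 0.0614) and the KO call of Pgr against gd16.5 (adjusted p = 0.0670). Depth limits Oxtr (2 to 20 counts per library) and Ptgfr at gd10.5 (5 to 19 counts), for which small differences were not detectable.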
